A study of Mus musculus with 6 samples.

Results

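CD8 beta+ T cells of the mouse mammary gland were described from the 3 bulk RNA-seq libraries that carry that name, out of 6 bulk libraries in the series. The members were taken by their labels alone (replicates 1, 2 and 3), and no measured value entered the choice. The cells came by flow sorting from the glands of mice in late pregnancy (E18.5), shortly before birth and the onset of full lactation. All 3 libraries are of 1 kind, with no genotype or treatment named. Strain, age, the number of animals per library and the full gate of the sort are not stated in the sources used here, so the spread over replicates is that between these libraries, which may be technical. The study asked whether unconventional intra-epithelial lymphocytes shape how epithelial and basal cells of the gland mature, and these conventional CD8 T cells are a neighbouring population of the same tissue.

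A CD8 alpha-beta T cell reads peptides on MHC class I through an alpha-beta receptor, whose signal is carried by the CD3 chains, and holds on to MHC class I through a coreceptor made of CD8 alpha and CD8 beta. Naive cells circulate through lymph nodes, guided in part by the chemokine receptor CCR7. Cells that have met antigen turn on granule enzymes, chemokines and receptors for inflamed tissue, and some of them stay in epithelia as resident memory cells, where the integrin CD103 can bind E-cadherin. CD8 alpha alone also appears on other lymphocytes, whereas CD8 beta is largely kept to conventional CD8 T cells.

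CPM and TPM are used below. CPM (counts scaled to library size, with TMM factors between the 3 libraries) serves to compare 1 gene between libraries. TPM (counts per kilobase of exon, scaled to the same total in each library over 21946 nuclear coding and receptor constant genes) serves to compare genes with each other, and ranks are places by mean TPM among those genes, of which 14180 had a count. The libraries held 7961360, 14367299 and 9568670 counts, so that 1 count was worth 0.0710 to 0.128 CPM. Between 16552 and 18280 genes had a count. With 3 libraries of 1 group no test was made, since the smallest two-sided exact p they allow is 0.25. Values are given as mean ± SD (n = 3) or for replicates 1, 2 and 3 in that order. Replicate 3 stood apart from the others in several gene groups described below, so levels are given library by library where it does; without it, the rank of Trac, for example, was 38 in place of 37.

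The defining transcripts of a CD8 alpha-beta T cell were among the more abundant in the libraries. Trac, the constant region of the receptor alpha chain, had 2971 ± 187 TPM (rank 37), and Cd8b1, the CD8 beta chain, 2741 ± 103 TPM (rank 43). Cd8a, the CD8 alpha chain, had 1074 ± 115 TPM (rank 119) and Cd3e, a CD3 chain, 803 ± 21.3 TPM (rank 160). These surface receptor genes thus stood within the top 200 places, although Cd8a was at rank 261 when the median coding transcript gave the length. Gzmk, the granule protease granzyme K, had 754 ± 95.7 TPM (rank 168), and Themis, an adaptor needed for T cell selection, 142 ± 5.13 TPM (rank 1008). By CPM, which does not correct for length, the ranks were 91 for Cd8b1, 104 for Cd8a, 134 for Cd3e, 174 for Trac, 341 for Themis and 622 for Gzmk. Cd4, the coreceptor of helper T cells, had 0.257, 1.14 and 4.91 CPM, far below the 860, 837 and 983 CPM of Cd8a in each library. The label therefore fits the markers in all 3 libraries.

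Among genes of the CD8 locus and the receptor complex, proportions were steadiest for Cd247 and Cd3d against Cd3e. Cd8b1 (chr6:71322788-71337494 in GRCm38/mm10) and Cd8a (chr6:71373427-71379173) are neighbours on the same strand. Cd8b1 gave 995, 876 and 923 CPM, and the libraries stood close together. Per kilobase, the Cd8b1 level was 2.84, 2.57 and 2.30 times that of Cd8a, whereas their counts were almost equal (log2 ratio 0.06), because the annotated exons of Cd8a span 3637 bases and those of Cd8b1 span 1483 bases. Among the CD3 chains, Cd247, the zeta chain, was at 0.205, 0.205 and 0.212 of Cd3e per kilobase, and Cd3d at 0.797, 0.742 and 0.782. The SD of these 2 log2 ratios was 0.03 and 0.05, among the smallest of the pairs examined, against 0.15 for Cd8b1 to Cd8a. Cd3g stood at 1.16, 1.12 and 1.28 of Cd3e, an order that turned with other length definitions. Of the 17 genes of the coreceptor and receptor list, which also holds the receptor's partners Cd2, Cd5, Cd6 and Cd28, the summed level was 8788, 8559 and 8665 CPM.

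The receptor beta chain can use either of a pair of constant genes, Trbc1 and Trbc2, which are nearly the same over their first 360 compared bases and part mainly near the end of the coding sequence. Over 480 bases, 465 were identical (96.88%), and 14 of the 15 differences fall in bases 361 to 480, which are shown because they are the stretch by which reads of the genes could be told apart. Capitals mark the differing bases (GENCODE M21 transcripts, plus strand of GRCm38/mm10, genes at chr6:41538218-41539881 and chr6:41546730-41548352).
Trbc1: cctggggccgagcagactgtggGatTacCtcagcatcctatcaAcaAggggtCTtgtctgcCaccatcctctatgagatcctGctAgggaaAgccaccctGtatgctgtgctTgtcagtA
Trbc2: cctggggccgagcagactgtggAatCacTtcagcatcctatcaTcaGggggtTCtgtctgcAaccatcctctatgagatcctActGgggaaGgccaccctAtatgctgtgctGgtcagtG
Trbc1 had 196, 179 and 159 CPM and Trbc2 had 264, 250 and 257 CPM. The Trbc1 level per kilobase was 0.688, 0.664 and 0.570 of the Trbc2 level. Trbc2 was the higher in each library, but counts over the shared bases may have been split between the genes by the authors' counting, so the ratio is uncertain.

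**Figure D1:**
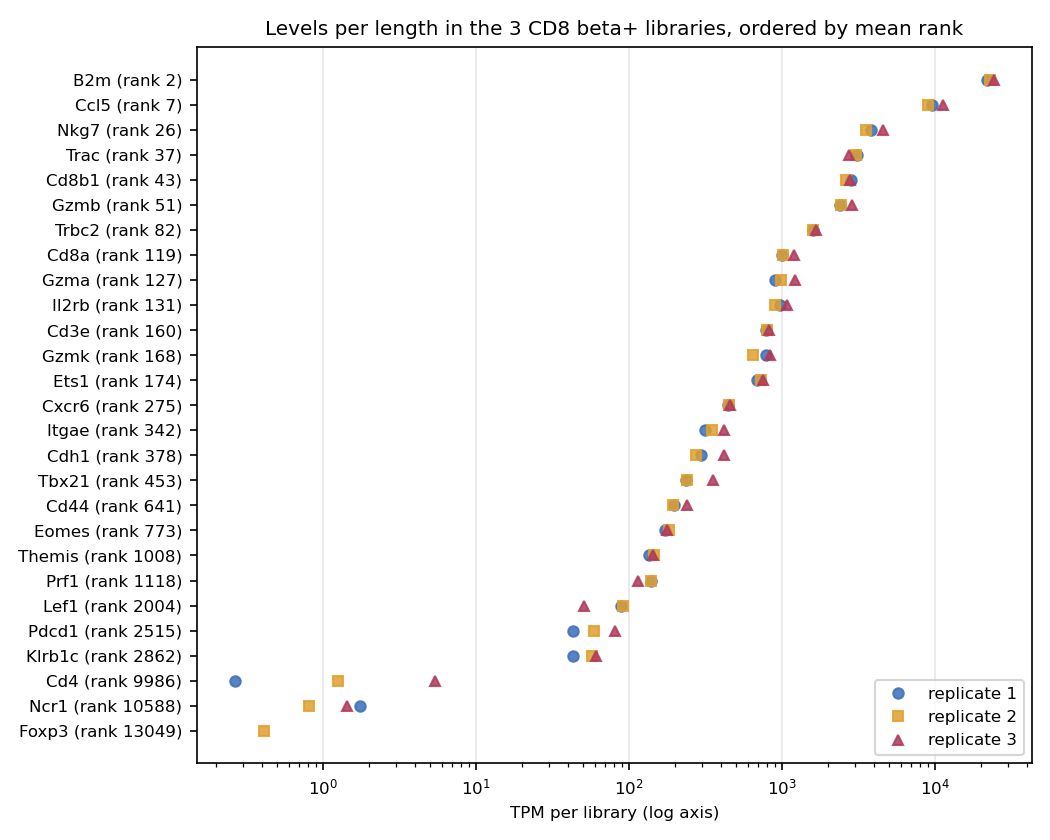
TPM of 27 genes in each CD8 beta+ library (points, log axis), ordered by rank of mean TPM; zeros are not drawn, which affects Foxp3 in replicates 1 and 3. The points of most genes lie close together, Lef1 of replicate 3 lies to the left of the others, and Cd4, Ncr1 and Foxp3 lie below 10 TPM.

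The most abundant transcripts were those of protein synthesis, MHC class I and the cytoskeleton. Eef1a1, a translation elongation factor, came first at 34874 TPM, followed by B2m, the light chain of MHC class I, at 22936 TPM, Actb at 17058 TPM and Tmsb4x, an actin-binding peptide, at 16851 TPM. Ribosomal protein genes held 13 of the top 20 places and 61 of the top 100. The first T cell effector gene was Ccl5, a chemokine that draws T cells and macrophages, at rank 7 with 2179, 1943 and 2410 CPM. Nkg7, a granule membrane protein, followed at rank 26 and Gzmb, granzyme B, at rank 51. Il2rg, the common gamma chain of cytokine receptors, at rank 98, and Zfp36l2, an RNA-binding protein that promotes mRNA decay, at rank 72, were also in the top 100. A total of 1532 genes reached 100 TPM.

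The granule genes were expressed unequally. Gzmb had 2561 ± 258 TPM, Gzma (granzyme A) 1034 ± 161 TPM and Prf1, the pore former perforin that lets granzymes into a target, only 131 ± 14.3 TPM. In Gzmb the libraries had 821, 783 and 920 CPM and in Prf1 85.9, 81.0 and 66.4 CPM, so the library with most Gzmb had least Prf1. Per kilobase Prf1 stood at 0.0581, 0.0575 and 0.0401 of Gzmb. Gzma stood at 0.377, 0.405 and 0.425 of Gzmb, and Gzmk at 0.862, 0.661 and 0.686 of Gzma. The order Gzmb, Gzma, Gzmk by this scale held in each library. Gzmm was low at 20.7, 13.2 and 14.1 CPM, and Gzmd, Gzme, Gzmg and Gzmn had no count in any library. Granzyme genes are similar in sequence, so reads may have been shared among them. Srgn, the proteoglycan that packs granules, had 1105 ± 110 TPM, Ctsw, a granule-linked protease, 883 ± 56.8 TPM, and Fasl, the death ligand, 213 ± 36.2 TPM.

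Among secreted factors, the chemokine Ccl5 was far above all others. Ccl5 had 9911 ± 1152 TPM, 75.8, 52.0 and 53.3 times the level of Ccl4 per kilobase, which was in turn 2.15, 2.80 and 2.21 times that of Ccl3. Xcl1, a chemokine that draws cross-presenting dendritic cells, had 403 ± 71.1 TPM. Ifng, the cytokine interferon gamma, had 64.2, 69.6 and 91.9 CPM and Tnf had 37.7, 42.7 and 33.8 CPM, with Ifng the higher per kilobase in all 3. Il2, the T cell growth factor, had 2.57, 1.28 and 0.903 CPM, and Il17a had no count. The values of Il2 rest on few counts.

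Receptor signalling genes had the smallest spread of the biological lists. All 17 were counted at 20 CPM or more in at least 1 library, and their summed level was 4678, 4560 and 4609 CPM. Lck, the kinase that starts the receptor signal, had 484, 411 and 438 CPM and 661 ± 35.8 TPM. Zap70, the kinase that docks on the CD3 chains, had 115, 95.1 and 111 CPM and 156 ± 13.1 TPM. The median coefficient of variation (CV) in the list was 5.84%, against 9.85% over all 6320 genes with 20 CPM or more in the highest library. Lck stood 1.75, 1.38 and 1.41 times above Fyn, a kinase of the same family, although their counts were nearly equal (log2 ratio 0.01).

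Factors of the CD8 lineage were well expressed, and those of CD4 lineages were low. Runx3, which represses Cd4, had 138 ± 11.2 TPM, and Zbtb7b, the factor of CD4 commitment, was at 0.0323, 0.0400 and 0.0309 of it per kilobase. Foxp3, the factor of regulatory T cells, had at most 0.426 CPM. Zbtb16, the factor of innate-like T cells, had 2.18, 0.0710 and 1.70 CPM. Ets1, a broad lymphoid factor, led the list with 1382, 1389 and 1433 CPM. Eomes, a T-box factor of memory and effector CD8 cells, had 170, 172 and 166 CPM, and its relative Tbx21 had 140, 135 and 197 CPM. Eomes was level over the libraries, whereas Tbx21 was highest in replicate 3, and the ratio of Eomes to Tbx21 per kilobase was 0.727, 0.765 and 0.507. By counts alone the mean log2 ratio was 0.13, with Eomes the higher in replicates 1 and 2 and Tbx21 in replicate 3. Ikzf2, Helios, was at 0.0321, 0.0439 and 0.0376 of Ikzf1, Ikaros.

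Receptors for homeostatic and inflammatory cytokines were led by the chains shared by IL-2 and IL-15. Il2rg had 1329 ± 10.0 TPM and Il2rb, the shared beta chain, 985 ± 91.5 TPM. Il2ra, the alpha chain that makes the IL-2 receptor high in affinity, had 6.16, 6.96 and 9.83 CPM and stood at 0.00468, 0.00600 and 0.00709 of Il2rb. Il7r, the receptor of the survival cytokine IL-7, had 428, 387 and 113 CPM, with replicate 3 far below the others. Per kilobase Il7r was at 0.398, 0.409 and 0.0998 of Il2rb. Ifngr1 had 953 ± 76.2 TPM, but its partner Ifngr2 only 2.76 ± 0.511 TPM.

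Genes of epithelial residence were well expressed. Itgae, the CD103 chain that binds E-cadherin, had 341, 361 and 427 CPM, and Cxcr6, a chemokine receptor of resident cells, 205, 195 and 198 CPM. Itgae was above its partner Itgb7 by 1.03, 1.26 and 1.27 times per kilobase, and by 1 length definition below it. Itga1, a collagen-binding integrin chain, had 334, 337 and 436 CPM. Zfp683, Hobit, exceeded Prdm1, Blimp-1, by 2.10, 1.79 and 1.93 times per kilobase, although its counts were fewer (log2 ratio -0.97). Cdh1, which encodes E-cadherin itself, had 323, 284 and 426 CPM. Epcam and Krt8, genes of luminal epithelium, were at 7.32, 6.60 and 3.91 CPM and at 6.42, 0.568 and 4.41 CPM. They are low members of their list. All 15 luminal and milk markers summed to 1040, 721 and 913 CPM, led per kilobase by Csn1s2a, Csn2 and Glycam1. The sort gives no single-cell view, so these libraries do not show which cells carried Cdh1. In bulk samples, more cells with a gene and more RNA of it per cell cannot be told apart.

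Inhibitory, activating and natural killer receptors ranged widely in level. Cd226 and Cd96, an activating receptor and a paired receptor of the same ligand, had 307 ± 66.8 and 434 ± 28.0 TPM, and Tigit, an inhibitory one, 267 ± 34.1 TPM. Pdcd1, the checkpoint PD-1, had 19.9, 25.9 and 35.0 CPM, Lag3 5.39, 5.96 and 9.93 CPM and Havcr2, TIM-3, 6.42, 5.89 and 6.82 CPM. Pdcd1 and Lag3 were highest in replicate 3. Klrc1, the inhibitory receptor NKG2A, had 249 ± 41.1 TPM, and was 1.34, 1.20 and 1.56 times its partner Klrd1 per kilobase. Klrb1c, which encodes NK1.1, had 30.4, 38.1 and 40.7 CPM, and Ncr1, a marker of natural killer cells, 0.642, 0.284 and 0.501 CPM. Members of the Klra family are near-identical, so their counts may have been split among copies and are not given one by one.

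Of the other lists, glycolysis, MHC class I and interferon response genes had a median CV of 7.12%, 7.78% and 9.06% at 20 CPM, under the 9.85% over all genes, and hormone response genes one of 17.0%. Gapdh had 957 ± 86.0 TPM. Ldha, which makes lactate, had 464 ± 58.6 TPM, and Ldhb was at 0.0198, 0.0184 and 0.00984 of it. H2-K1 had 2033 ± 154 TPM, and H2-D1 was at 0.552, 0.523 and 0.569 of it per kilobase. Nr3c1, the glucocorticoid receptor, had 219, 243 and 239 CPM and its target Tsc22d3 had 286, 248 and 228 CPM. The receptors of the pregnancy hormones were near 0: Pgr had 0, 0 and 0.401 CPM, Prlr 1.16, 0.710 and 0.100 CPM, and Esr1 0.770, 2.55 and 2.21 CPM. Early response genes such as Junb (240, 244 and 315 CPM), Fos (82.8, 87.9 and 128 CPM) and Nr4a3 (625, 656 and 829 CPM) were highest in replicate 3. Of the 28 list members, 15 were highest there, where 36.1% of all genes were, and 8 were lowest there, where 36.2% of all genes were.

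**Figure D2:**
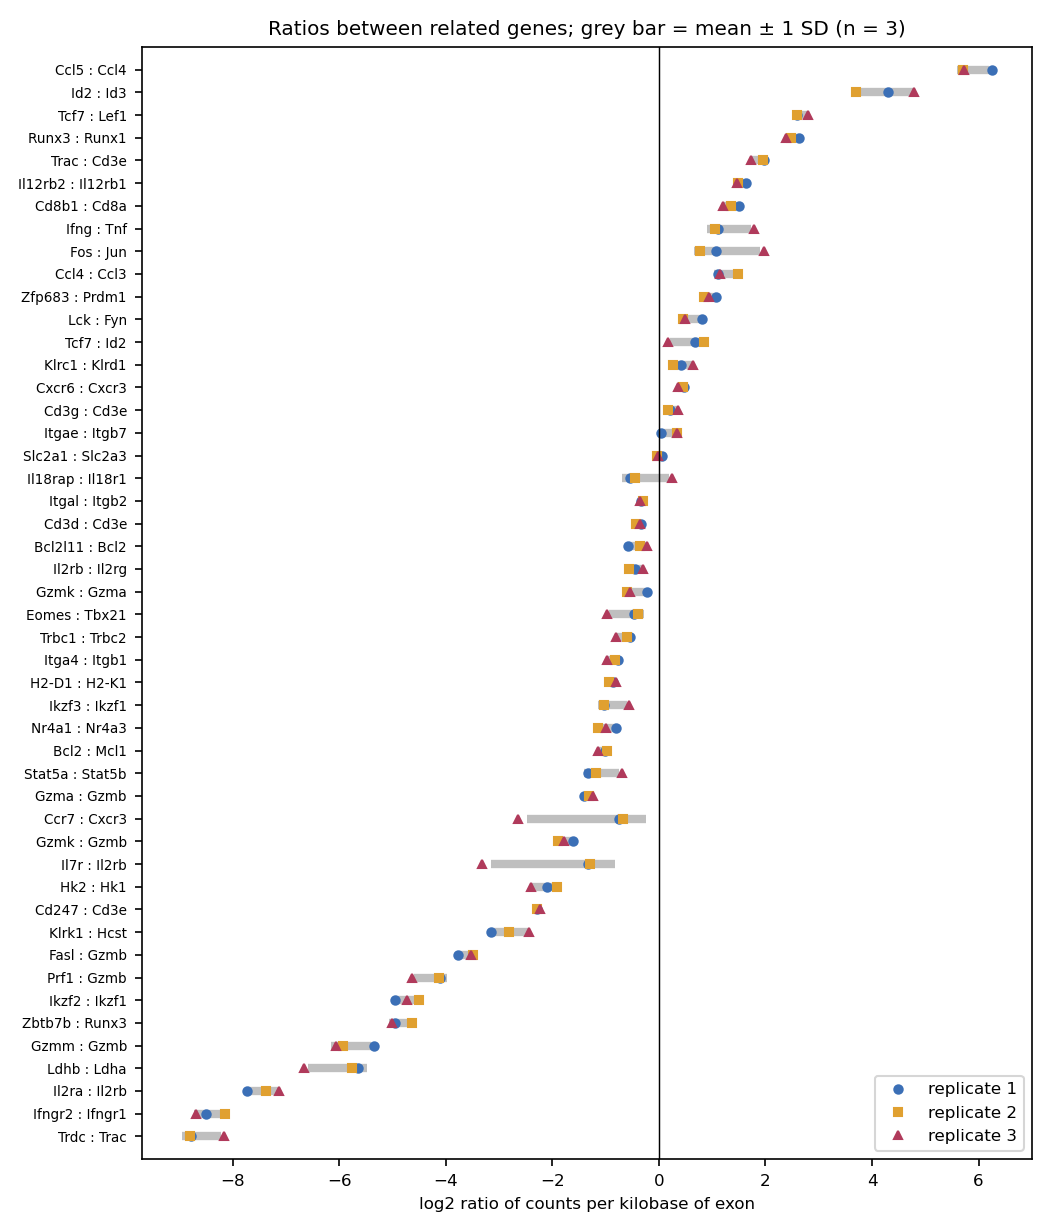
Log2 ratio of counts per kilobase of exon for the 48 pairs of related genes with at least 10 counts of each gene in every library; points are libraries and grey bars span mean ± 1 SD. Ccr7 : Cxcr3 and Il7r : Il2rb show replicate 3 well to the left of the other libraries.

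Over 50 pairs of related genes, 48 had 10 counts of each gene in every library. The median SD of their log2 ratio was 0.19, and 30 had an SD under 0.25. In 2 pairs replicate 3 was over 2-fold from both other libraries, and each set a gene of naive cells against one of activated cells. The pairs were chosen with earlier results of these data known, so this count is a description. Ccr7 stood at 0.594, 0.624 and 0.160 of Cxcr3, a receptor for inflamed tissue. The other pair was Il7r and Il2rb, above. In 8 of the pairs, the choice of gene length decided which gene was the higher.

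Replicates 1 and 2 were close, and replicate 3 stood apart from both. Over 6320 genes with 20 CPM or more in the highest library, the median absolute log2 difference was 0.14 between replicates 1 and 2, 0.18 between 1 and 3, and 0.17 between 2 and 3. The number of genes over 2-fold apart was 33, 98 and 120 in the same order. The common biological coefficient of variation, edgeR's estimate of the spread beyond counting error, was 30.8%, and 20.6% without replicate 3 (35.0% without replicate 1 and 32.0% without replicate 2). Among 3241 coding genes with a mean of 50 CPM or more the median CV was 7.67%, and 27 genes had a CV of 30% or more. A gene was called apart in a library if it lay at least 2-fold above or below both others. At 20 CPM, a minimum chosen after seeing the data, 0.427% of genes were apart upward in replicate 3 and 0.728% downward, against 0.0475% and 0.142% in replicate 1 (which counts Fabp4, at 0 counts there and 1 count in replicate 2, as lower) and 0.19% and 0.127% in replicate 2. Over all 14035 genes that passed the filter on low counts, the shares were 5.69% upward and 6.26% downward in replicate 3, 2.52% and 5.63% in replicate 1 and 3.58% and 3.32% in replicate 2. Ribosomal protein genes summed to 99311, 90019 and 75117 CPM, and 76 of the 78 were lowest in replicate 3. Small nucleolar and nuclear RNA genes summed to 7842, 8759 and 4912 CPM, with 147 of 174 lowest there. By any amount, 36.2% of all genes that passed the filter were lowest in replicate 3. Mitochondrial transcripts took 9.72%, 10.5% and 8.23% of counts.

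Genes of naive and central memory cells were lower in replicate 3. Their summed level was 3539, 3599 and 2016 CPM, and 21 of the 23 were lowest there, where 36.2% of all genes were (32.8% were lowest in replicate 1 and 30.3% in replicate 2). This list was chosen with earlier results of these data known, so the counts are a description and not a test. The same holds for the effector, residency, checkpoint and cell cycle lists below. Ccr7 had 90.5, 91.4 and 25.3 CPM, a 3.58-fold gap to the nearer library, and Il7r, above, had a 3.42-fold gap. In both genes replicates 1 and 2 lay together. Treml2, a receptor of the TREM family, had 48.5, 41.7 and 12.1 CPM. Satb1, a chromatin organiser of naive T cells, had 464, 530 and 214 CPM, and Il6ra, the IL-6 receptor, 53.0, 53.4 and 20.3 CPM. Dapl1, a gene high in naive and memory cells, had 27.0, 16.3 and 7.72 CPM. In all, 7 of the 23 members were at least 2-fold lower than both others (background 6.26%). The transcription factors Tcf7 and Lef1 differed less, at 337, 329 and 210 CPM and at 187, 182 and 100 CPM. Cd27, at 93.4, 88.0 and 87.9 CPM, and Bcl2, the survival factor, at 386, 404 and 365 CPM, differed little between libraries. Tcf7 stood 6.04, 6.04 and 6.99 times above Lef1 per kilobase, so both factors were lower in replicate 3 in like measure.

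**Figure D3:**
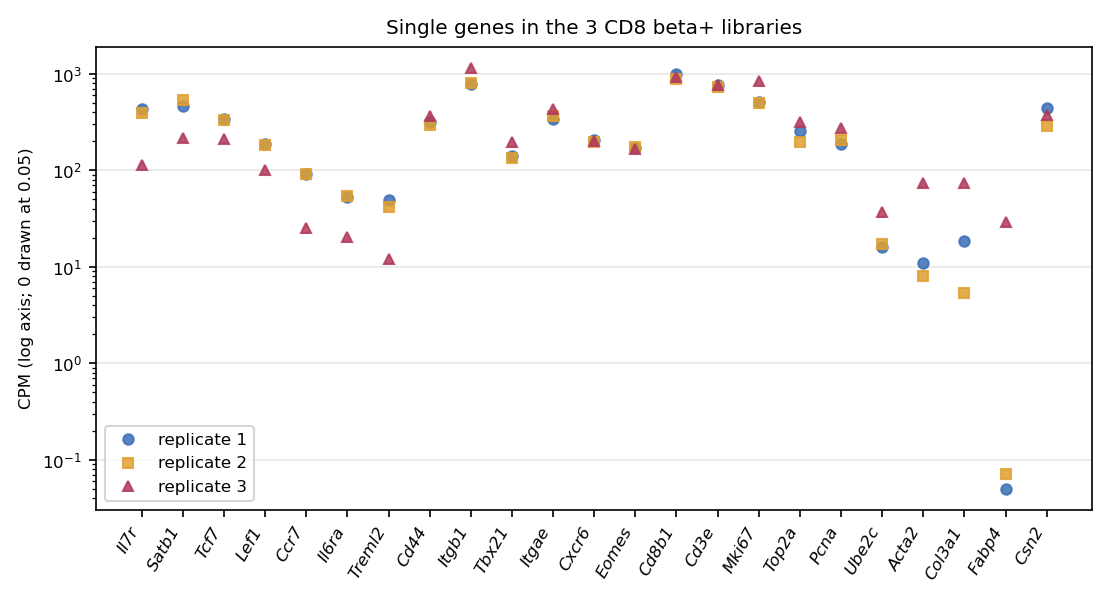
CPM of 23 genes in each CD8 beta+ library (points, log axis; the 0 of Fabp4 in replicate 1 is drawn at 0.05). Replicate 3 lies below the others in Il7r through Treml2 and above them in Mki67, Top2a, Pcna, Ube2c, Acta2, Col3a1 and Fabp4, whereas Cd8b1, Cd3e, Cxcr6 and Eomes overlap.

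Effector, residency and checkpoint genes were shifted the other way, by smaller amounts. The median difference of replicate 3 from the middle library was 0.31 over 26 effector and memory genes, 0.25 over 24 residency genes and 0.30 over 19 checkpoint genes (log2), against 0 over all genes that passed the filter. Replicate 3 was highest in 22, 20 and 15 of them, where 36.1% of all genes were (32% were highest in replicate 1 and 31.9% in replicate 2). Itgb1, an integrin chain raised on memory cells, had 777, 808 and 1144 CPM, and S100a4 had 58.7, 49.8 and 92.8 CPM. Klrg1, a receptor of terminal effector cells, had 18.1, 11.8 and 29.5 CPM. Ly6c2 went against its list, at 652, 528 and 440 CPM. No member of the effector or residency lists was apart by 2-fold in any library. The cytotoxic granule genes had a median of 0.05 in replicate 3.

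Cell cycle genes were detected in all 3 libraries and were highest in replicate 3. Mki67, the proliferation marker, had 508, 492 and 831 CPM and 266 ± 88.7 TPM (rank 476), and Top2a, which untangles chromosomes, 252, 198 and 318 CPM. Pcna, the replication clamp, had 187, 205 and 271 CPM. The 28 genes of G1/S summed to 1491, 1459 and 1993 CPM, with 27 highest in replicate 3, and the 31 genes of G2/M to 1500, 1359 and 2187 CPM, with 26 highest there. By any amount, 36.1% of all genes that passed the filter were highest in replicate 3. Their median differences in replicate 3 were 0.34 and 0.54 on the log2 scale. By 2-fold, 3 of the G2/M genes were apart upward in replicate 3, where 5.69% of all genes were. Ube2c, which marks cyclins for decay, was the only one of them at 20 CPM, with 16.0, 17.2 and 36.5 CPM. Histone genes summed to 2374, 1864 and 3284 CPM over 62 genes, although near-identical copies may share reads. Bub1 (24.4, 14.4 and 14.0 CPM) and Cenpa (68.3, 58.5 and 55.5 CPM) were lowest in replicate 3.

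The promoters of cell cycle genes are shown because members of both lists moved together among libraries. The motifs were searched on both strands in the 250 bases before the first listed start (RefSeq, GRCm38.p6): TTCCCGC, an E2F-type motif of G1/S genes, TTTGAA, the CHR motif of G2/M genes, and CCAAT, a box common in promoters. The E2F-type motif lay in 9 of 23 G1/S promoters (39.1%) and in 0 of 27 G2/M promoters, against 3.84% of all 27025. The CHR motif lay in 3 G1/S (13.0%) and 9 G2/M promoters (33.3%), against 16.3% of all. The CCAAT box lay in 14 (60.9%) and 19 (70.4%), against 34.5% of all, and in 6 of 19 naive promoters (31.6%). Mki67 (chr7:135716380-135716629, minus strand) holds the CHR motif 2 times and the CCAAT box 3 times, and Mcm7 (chr5:138171884-138172133, minus strand), a subunit of the replicative helicase and the G1/S member of highest TPM with the E2F-type motif, holds that motif 1 time and the CCAAT box 2 times. Capitals mark the motifs on either strand.
Mki67: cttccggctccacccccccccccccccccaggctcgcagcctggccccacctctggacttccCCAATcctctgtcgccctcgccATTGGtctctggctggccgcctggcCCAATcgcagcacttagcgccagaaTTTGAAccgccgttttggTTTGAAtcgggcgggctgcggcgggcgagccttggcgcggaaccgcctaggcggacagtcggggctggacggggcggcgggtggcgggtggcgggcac
Mcm7: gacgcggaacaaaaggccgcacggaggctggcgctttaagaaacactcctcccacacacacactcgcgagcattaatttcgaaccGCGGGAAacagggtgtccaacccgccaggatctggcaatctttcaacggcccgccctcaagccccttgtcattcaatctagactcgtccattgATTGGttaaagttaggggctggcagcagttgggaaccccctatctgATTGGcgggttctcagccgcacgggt
A match is a description of the letters and says nothing of binding. Mcm7 had 73.2, 70.3 and 102 CPM, highest in replicate 3 like Mki67.

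**Figure D4:**
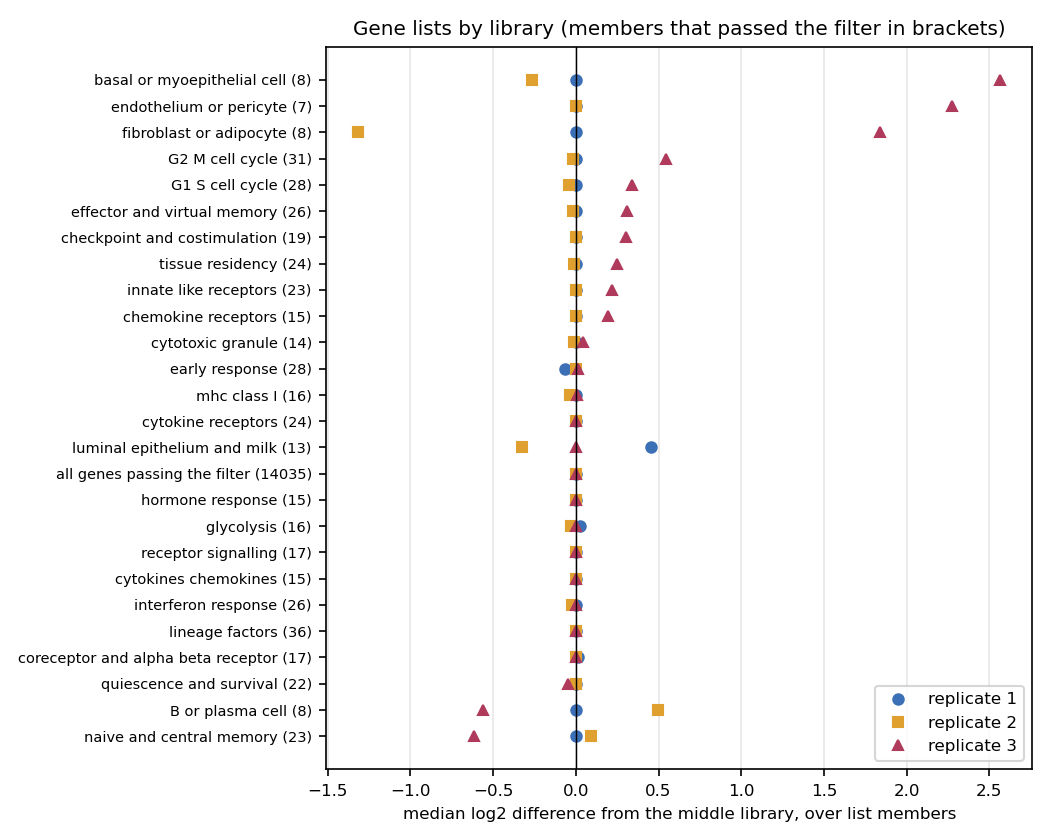
Median over list members of the log2 difference from the middle library, for 20 biological lists, 5 marker lists of other cells and all genes that passed the filter; the number of members that passed is in brackets. Replicate 3 departs to the left in the naive list (-0.61) and the B or plasma cell list (-0.56). It departs to the right in the cell cycle, effector, basal, fibroblast and endothelial lists.

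Markers of other cells were present at unequal levels. Genes with over 100 CPM in each library included Csn2, Cd74 of the MHC class II pathway and Ighm, and the summed levels of fibroblast and basal markers were highest in replicate 3. Csn2, the milk protein beta-casein, had 441, 285 and 370 CPM, and the 15 luminal and milk markers summed to 1040, 721 and 913 CPM. The 9 basal or myoepithelial markers summed to 18.48, 15.5 and 151 CPM. Some of these markers passed the filter only through replicate 3, so their list median is a description. Acta2, smooth muscle actin, had 11.0, 7.95 and 73.9 CPM. The 10 fibroblast or adipocyte markers summed to 47.9, 16.4 and 195 CPM, where Col3a1, a collagen, had 18.48, 5.32 and 73.7 CPM, and Fabp4, a fatty acid carrier of fat and vessel cells, 0, 0.0710 and 28.9 CPM, while Adipoq and Plin1, defining markers of fat cells, had no count. The 8 endothelial markers summed to 34.5, 38.6 and 49.4 CPM, of which 34.4, 37.2 and 22.1 CPM were Pecam1, and Kdr, Emcn, Cldn5, Pdgfrb and Rgs5 had counts in replicate 3 only. Replicate 3 thus differs from the others in these markers and in naive and cell cycle genes at once, and the part of other cells in those differences was not tested. The 9 B or plasma cell markers summed to 258, 261 and 173 CPM, of which Ighm, the IgM heavy chain, gave 207, 194 and 146 CPM, and Cd79a had 5.13, 9.79 and 3.91 CPM. The 18 myeloid markers summed to 547, 619 and 656 CPM, led by Cd74 at 242, 271 and 247 CPM, and Ly6g and Xcr1 had no count. The sums were 31.6, 48.0 and 61.9 CPM for 7 CD4 or regulatory T cell markers, 41.7, 49.5 and 56.3 CPM for 8 gamma-delta T cell markers (Trdv4 and Il23r without a count), 39.3, 36.1 and 43.1 CPM for 8 natural killer markers, 42.2, 37.3 and 16.0 CPM for 8 erythroid or platelet markers and at most 0.513 CPM for 7 mast cell markers.

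Among the single genes that stood furthest apart, replicate 3 had more Sparc (2.44, 4.19 and 43.7 CPM), Myh11 (2.95, 2.77 and 28.3 CPM), Postn (1.41, 2.91 and 24.7 CPM) and Igfbp5 (3.34, 0.994 and 26.4 CPM), besides Fabp4. Of the 27 genes apart upward at 20 CPM (0.427% of 6320), 2 were basal and 4 were fibroblast or adipocyte markers. These markers reached 20 CPM in replicate 3 only, so their count is a description and not a test. Sparc and Postn are matrix proteins and Myh11 is a smooth muscle myosin. Igfbp5 and the collagen Col1a2 (5.01, 1.35 and 25.6 CPM) were also apart downward in replicate 2, with Col3a1 and the proteoglycan Dcn (7.06, 1.77 and 23.7 CPM). Downward, replicate 3 had less of the small nucleolar RNAs Snord32a (28.2, 42.8 and 6.02 CPM) and Snora9 (23.5, 27.3 and 6.22 CPM). Replicate 2 alone had Rnu5g, a spliceosomal RNA (0, 68.8 and 0 CPM), and had more Igha (3.59, 49.2 and 2.61 CPM) and Igkc (45.6, 100.5 and 20.4 CPM), constant regions of antibodies, as well as Mir6236 and Auh. Replicate 1 had more Muc15 (21.2, 8.80 and 8.32 CPM) and Fam177a (59.9, 5.25 and 27.8 CPM), the latter lowest in replicate 2, and less Galnt2, Dst and Txnl4a. Some such calls come from gene models that share a locus. Zc3h11a has 2 IDs there, with 80.1, 73.1 and 27.5 CPM and with 17.1, 42.7 and 92.1 CPM, which move in opposite directions, while their sum was 97.2, 116 and 119.5 CPM. A second ID of Sept2 had 26.6, 14.1 and 0 CPM.

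The receptor V segments carry a record of which T cell clones a sample holds, since each beta chain joins 1 of these segments to the constant region. The 5 segments with the most counts over the 3 libraries end in the following bases, of which the last 60 are shown with the conserved cysteine codon before the CDR3 loop in capitals (GENCODE M21, plus strand of GRCm38/mm10, at chr6:41116007-41116468, chr6:41048290-41048828, chr6:41178375-41179048, chr6:41271394-41271881 and chr6:41121396-41121832).
Trbv13-1: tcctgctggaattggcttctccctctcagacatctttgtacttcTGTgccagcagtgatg
Trbv3: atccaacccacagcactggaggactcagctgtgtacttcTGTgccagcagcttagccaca
Trbv19: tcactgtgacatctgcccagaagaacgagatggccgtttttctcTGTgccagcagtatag
Trbv29: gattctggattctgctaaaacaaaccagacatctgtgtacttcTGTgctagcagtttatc
Trbv13-2: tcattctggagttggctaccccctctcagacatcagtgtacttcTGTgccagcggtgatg
Counts of beta segments were 2030, 2969 and 2488, and 23 of 35 segments had a count in at least 1 library. Trbv13-1 took 24.7% (95% exact binomial interval 22.8 to 26.6), 21.2% (19.7 to 22.7) and 9.77% (8.63 to 11.0) of them. Trbv3 took 9.21% (7.99 to 10.6), 7.92% (6.97 to 8.95) and 18.0% (16.5 to 19.6), and Trbv19 took 6.40% (5.38 to 7.56), 9.63% (8.59 to 10.8) and 15.7% (14.3 to 17.2). The most used segment was thus Trbv13-1 in replicates 1 and 2 and Trbv3 in replicate 3. Intervals cover counting error only.

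**Figure D5:**
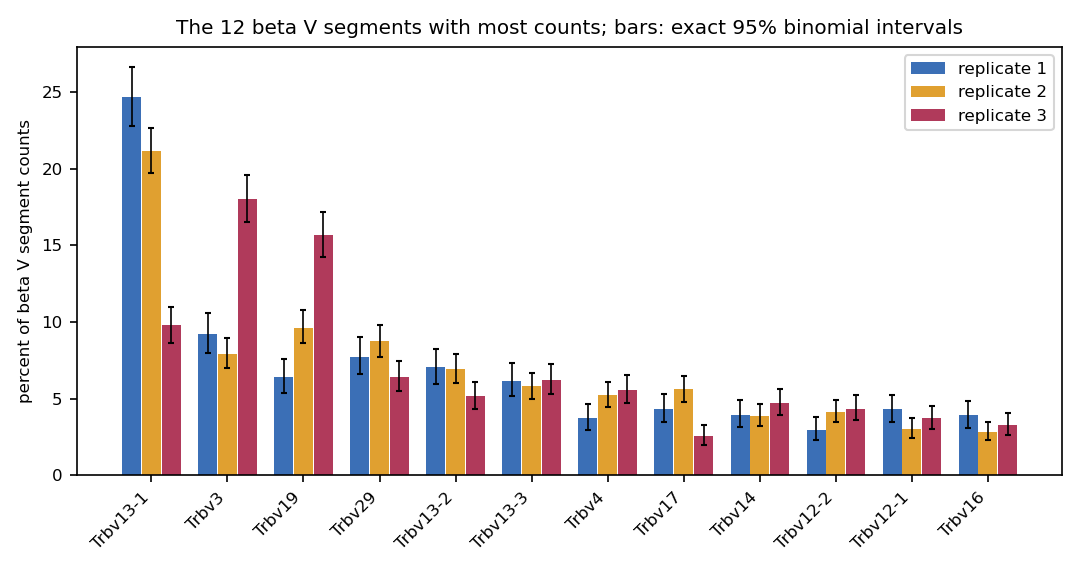
Share of beta V segment counts (bars, percent) in each library for the 12 segments with most counts, with exact 95% binomial intervals. Replicate 3 has less Trbv13-1 and more Trbv3 and Trbv19 than the other libraries.

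The share of beta counts that would have to move to turn one library's use into another's was 11.5% between replicates 1 and 2, 26.3% between 1 and 3 and 21.8% between 2 and 3. Intervals apart from both other libraries were found for 4 segments in replicate 1, 0 in replicate 2 and 5 in replicate 3. The use was similarly even, with an effective number of 9.86, 11.1 and 11.0 segments. Alpha segments gave 1777, 3079 and 2147 counts, and 106 of 128 segments had a count in at least 1 library. Trav12-2 took 7.15%, 6.59% and 1.44% of them, and Trav12d-3 took 5.57%, 6.82% and 0.699%, so both were low in replicate 3. By contrast, Trav12-3 took 0.450%, 1.72% and 2.75% and Trav12n-3 took 0%, 0% and 0.978%, both highest in replicate 3. Trav12d-2 and Trav12n-2 each took 1.24%, 1.33% and 1.44%. Trav7-2 had 0 counts in replicate 1 (exact upper limit 0.207%) and took 2.24% and 4.56% in the others. Its copy Trav7d-2 showed the reverse, with 2.53% in replicate 1 and 0 counts in replicates 2 and 3. Whether reads were assigned to different copies in different libraries was not tested. The share that would have to move was 21.7% between replicates 1 and 2, 33.8% between 1 and 3 and 32.1% between 2 and 3. Copies of alpha segments are near-identical, and counts may have been split among them.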

How the data were processed

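Bulk RNA-seq of sorted T cells was deposited as 1 table of gene counts, of which the 3 CD8 beta+ columns were used. The values deposited by the authors were treated like unscaled expected counts, because they hold decimals and their totals differ; the labels do not state the unit. Libraries came from a Tecan kit, per the labels. The submitters' processing notes name mm10 and Cell Ranger 7.1.0, a single-cell tool. The bulk aligner, counter, annotation and strand setting are not given in the sources used. The table's ID and symbol headings are exchanged, and IDs were matched to GENCODE M21.

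Counts were rounded. Genes with at least 10 counts in 1 library and 15 in total passed the filter (14035). CPM used TMM factors and dispersions came from edgeR 4.0.16 in R 4.3.3. Differences from the middle library are on log2(CPM + 0.5). TPM used union exon lengths. No group was compared and no test was made; the calling of genes apart was tested on simulated data. Chi-square per degree of freedom between libraries was 10.1 to 24.4, so none was a copy. The 20 biological lists, 12 marker lists and 50 pairs were chosen with earlier results of these data known. Genes were named by rule: the markers and Cd4, the top 20 by TPM, the 3 highest and the most variable member of each list, the 5 furthest apart in each library and direction at 20 CPM, both genes of each pair, and the leading marker of each other cell type. Further list members were named after their values were seen. A few genes of the lists are not reported here. Alternatives were other scalings, filters, folds and gene lengths, and leaving out each library.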

Additional observations from a re-analysis of the deposited data

How the results depend on the processing

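Counts of genes apart, given as higher and lower for replicate 1, then 2, then 3, were 353, 790, 502, 466, 799, 878 as reported. They were 35, 147, 109, 63, 175, 275 with at least 50 counts in the highest library, 1615, 1728, 2640, 957, 2473, 1763 with no filter, 752, 1240, 977, 785, 1303, 1465 at 1.5-fold, 152, 516, 245, 277, 476, 513 at 3-fold, and 3, 9, 12, 8, 27, 46 at 20 CPM. Low counts thus give most of the calls, and below 20 CPM depth limits what a call means. Ranks of Cd8b1, Cd8a, Cd3e, Trac, Gzmk and Themis were 73, 145, 141, 65, 204, 527 by the longest transcript, 142, 261, 167, 104, 375, 485 by the median coding transcript and 91, 104, 134, 174, 622, 341 by CPM. The rank of Trac ran from 37 to 38 when each library was left out. With the longest transcript, log2 ratios were 1.14 for Cd8b1:Cd8a and turned to -0.068 for Cd3g:Cd3e, -0.038 for Klrc1:Klrd1. With the median coding transcript, log2 ratios were 1.10 for Cd8b1:Cd8a, -0.39 for Trbc1:Trbc2, -1.21 for Gzma:Gzmb, -0.074 for Eomes:Tbx21 and turned to -0.064 for Tcf7:Id2, -2.19 for Itgae:Itgb7, 0.43 for Bcl2l11:Bcl2, 0.21 for H2-D1:H2-K1. With counts without length, log2 ratios were 0.062 for Cd8b1:Cd8a, -1.83 for Gzma:Gzmb and turned to -0.074 for Cd3g:Cd3e, -0.24 for Trac:Cd3e, 0.013 for Gzmk:Gzma, 0.13 for Eomes:Tbx21, -0.97 for Zfp683:Prdm1, 0.92 for Itga4:Itgb1, 0.78 for Itgal:Itgb2, 0.41 for Il2rb:Il2rg, 0.38 for Bcl2:Mcl1, 0.51 for Klrk1:Hcst. Signs also changed for Il18rap:Il18r1, from -0.25 to 0.0019 with the longest transcript and 0.24 without length. For Slc2a1:Slc2a3 they changed from 0.0045 to -0.10 with the longest transcript, -1.43 with the median coding transcript and -1.04 without length. Both pairs are also within the totals that follow. Of the other values tried, 114 main and 357 further ones moved by less than the spread between libraries, and 79 further ones by more. No paired analysis was possible because no groups were compared and no test was made. The minimum of 20 CPM was chosen after seeing the data.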
